A study of Mus musculus with 10 samples.

Results

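CD43+ monocytes were compared with Ly6C+ monocytes, 2 sorted monocyte types of mouse blood in this single-cell RNA study. They were the cells that carried the CD43+ or the Ly6C+ population hashtag and no other, with at least 1000 gene UMIs (unique molecular identifiers, each counted as 1 captured mRNA molecule), at least 500 genes and at most 10% mitochondrial UMIs. These rules left 3412 of the 14687 hashtagged cells that passed the same filters in the whole study: 931 Ly6C+ and 663 CD43+ cells in dataset 1, and 866 Ly6C+ and 952 CD43+ cells in dataset 2. A hashtag is an antibody that carries a DNA barcode and marks which sorted population a cell came from. The other cells of the study were LysoDCs (lysozyme-expressing phagocytes of Peyer's patches), dendritic cells from those patches, and blood cells that lacked both Ly6C and CD43 (DN cells). Labels of dataset 2 also call monocytes those DN cells that are positive for the chemokine receptor CCR2.

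All blood came from female C57BL/6Rj mice, 20 in dataset 1 and 18 in dataset 2, whose cells were pooled within a dataset. Every one of these mice had received liposomes loaded with clodronate by vein 9 days before blood was taken, a treatment that depletes phagocytes. The treatment was thus common to both populations, and monocytes of untreated mice were not analysed here. Cells were sorted by flow cytometry from those with high CD115, the receptor for the monocyte growth factor M-CSF, by their surface Ly6C and CD43. The hashtags were added after the sort in dataset 1 and before it in dataset 2. Dataset 1 was 1 library that held every population. In dataset 2 the labels place Ly6C+ and CD43+ monocytes in different libraries, so that there the population and the library cannot be told apart.

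Ly6C+ monocytes, called classical, leave the bone marrow through the chemokine receptor CCR2 and enter inflamed tissue. CD43+ monocytes, called non-classical or patrolling, have low Ly6C, descend largely from Ly6C+ monocytes under the control of the nuclear receptor NR4A1, and crawl along the inside of blood vessels by means of the integrin LFA-1. CD43 itself is sialophorin, the product of Spn.

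Each population had 2 pools, 1 per dataset. Counts were summed within a pool and tested over 8 such sums (LysoDCs, both monocyte types and DN cells in each dataset) with edgeR's quasi-likelihood test, dataset as a block and Benjamini-Hochberg adjustment over 11458 genes. Differences below are fitted log2 values, CD43+ minus Ly6C+, with a standard error (SE). The SE was derived from the test, as the size of the difference over the square root of its F statistic. Levels are CPM, counts scaled to a common total of a pool's own gene UMIs, given as dataset 1 and then dataset 2, whereas fitted differences also carry TMM scaling, which lowers CD43+ against Ly6C+ by 0.14 in dataset 1 and 0.26 in dataset 2. Every p rests on 2 pools a side and on a spread shared with LysoDCs and DN cells. By the labels of dataset 2, LysoDCs and DN cells each join several sorted populations. Their sums held 2714 and 681 LysoDCs and 1678 and 4971 DN cells in datasets 1 and 2. Whether a differing make-up of these sums added to that spread was not tested. Where that spread decided a call, the p of a fit to the 4 monocyte sums alone is given beside it. That fit leaves 1 residual degree of freedom, so its p is no stronger evidence than that of the main fit.

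The Ly6C+ pools held 4120083 and 5197974 gene UMIs and the CD43+ pools 2409391 and 2596548. Median depth per cell was 4409 and 5920 UMIs in Ly6C+ cells and 2963 and 2312 in CD43+ cells. In sums over cells, fewer cells with a transcript and less of it per cell cannot be told apart. In dataset 1 the cell's own hashtag made up a median of 32.8% of hashtag UMIs in Ly6C+ and 29.2% in CD43+ cells, against 98.9% and 97.5% in dataset 2. Filters kept 96.5% and 77.4% of singly tagged Ly6C+ cells and 95.4% and 90.4% of CD43+ cells, and 246 of the Ly6C+ cells of dataset 2 failed the mitochondrial limit. Barcodes that occurred in both matrices numbered 37. Markers of LysoDCs and tissue phagocytes summed to 1880 and 280 CPM in Ly6C+ pools and to 2110 and 453 CPM in CD43+ pools. Complement C1qa was at 454 and 31.6 CPM against 526 and 84.3, high in both populations of dataset 1, and none of the 10 tested markers of this list passed. Their part in the results was not tested.

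The sort was checked first, because Ly6c2 and Spn encode the markers of the gates and are no finding. Ly6c2 (ENSMUSG00000022584, GRCm38 chr15:75108158-75111970, minus strand, protein coding) was at 1288 and 1059 CPM in the Ly6C+ pools and at 10.8 and 2.31 CPM in the CD43+ pools. The near-identical Ly6c1 had 1 UMI in all 4 pools, so how reads were split between the 2 copies is uncertain. Ly6c2 differed by -8.20 ± 1.27 (adjusted p = 0.0201), and by the 4 monocyte sums alone adjusted p was 3.19e-08, but without the CD43+ pool of dataset 1 or of dataset 2 it no longer passed (adjusted p = 0.14 and 0.165). Spn (ENSMUSG00000051457, chr7:127132232-127137823, minus strand, protein coding) was at 49 and 54.6 CPM in Ly6C+ and at 680 and 688 CPM in CD43+ pools, a difference of 3.50 ± 0.26 (adjusted p = 4.75e-05). Neither gene's pools overlapped between populations. With 2 pools a side, a lack of overlap is weak evidence here and below, and its share over all genes tested is not given. After each cell was thinned to 1000 UMIs, Spn was seen in 45.1% and 47.8% of CD43+ cells and in 4.83% and 4.39% of Ly6C+ cells, beside 0.368% and 0.147% of LysoDCs. Without thinning the shares were 81.9% and 73.3% in CD43+ and 17.0% and 22.2% in Ly6C+ cells.

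Of the 11458 genes tested, 1546 (13.5%) were higher and 1656 (14.5%) lower in CD43+ monocytes, 27.9% in all. Counts of list members below are to be read against these shares. No gene among them had opposite signs in the 2 datasets. Of the calls 48.3% were higher, but 67.4% when library totals replaced TMM factors, which moved the median of all genes from 0.01 to 0.21 (2290 higher and 1107 lower). Fits without the CD43+ or the Ly6C+ pool of dataset 2 gave 1322 and 1538 calls. Differences were large: 718 genes were at least 2-fold higher and 805 at least 2-fold lower, and 73 and 75 genes passed 16-fold. The median over all genes tested was 0.01. Among the 3160 genes at 50 CPM or more in both pools of a population, 2802 (88.7%) had the same sign in both datasets, and the datasets' differences had a Pearson correlation of 0.94 across genes, which are not independent replicates.

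**Figure D1:**
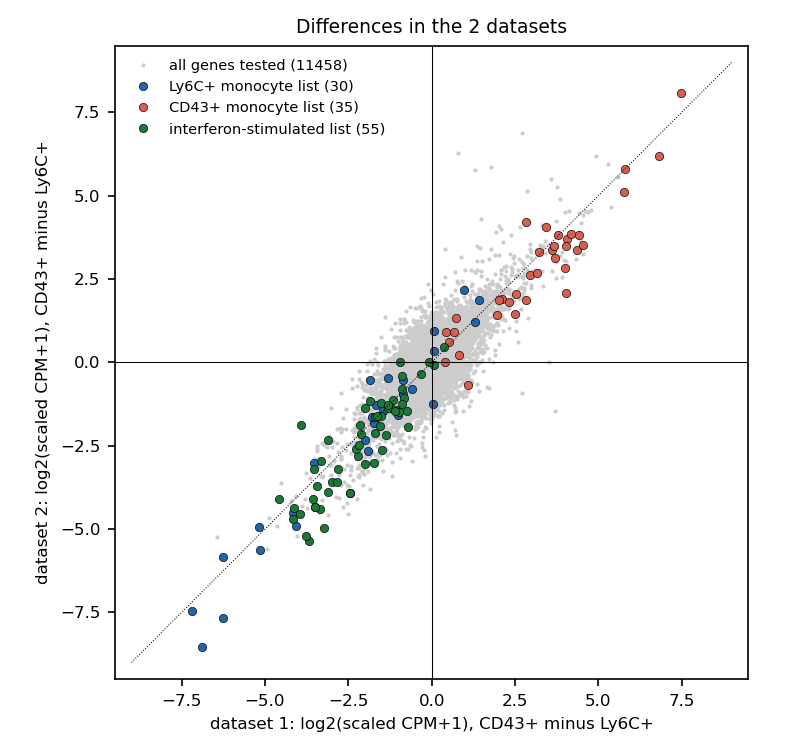
Each point is a gene, placed by its log2 difference (TMM-scaled CPM + 1) between CD43+ and Ly6C+ monocytes in dataset 1 (horizontal) and dataset 2 (vertical); the dotted line marks equality. The 30 tested genes of the Ly6C+ monocyte list and the 55 interferon-stimulated genes lie mostly at the lower left, and the 35 genes of the CD43+ monocyte list mostly at the upper right.

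Genes known from Ly6C+ monocytes were mostly lower in CD43+ cells: 16 of 30 tested were lower, 1 was higher and the median difference was -1.78. Without the CD43+ pool of dataset 1 or 2, 8 were lower. Ly6c2 is itself a gene known from Ly6C+ monocytes, and its direction was set by the sort. Ccr2 (ENSMUSG00000049103, chr9:124101950-124113557, plus strand, protein coding), the receptor for exit from marrow, stood at 1338 and 1241 CPM in Ly6C+ and at 86.3 and 48.1 CPM in CD43+ pools. Both CD43+ pools lay far below both Ly6C+ pools, and the difference was -4.49 ± 0.25 (adjusted p = 3.85e-06). Fibronectin, Fn1, was at 922 and 898 CPM against 5.81 and 5.01 (-7.69 ± 0.82, adjusted p = 0.00564). The A subunit of clotting factor XIII, F13a1, was at 879 and 580 CPM against 11.6 and 2.31 (-7.15 ± 0.84, adjusted p = 0.0078). Both were nearly absent from CD43+ pools, with no overlap. Leaving out the CD43+ pool of dataset 1 or of dataset 2 ended both calls with the sign kept: adjusted p was 0.0709 and 0.0854 for Fn1, and 0.0799 and 0.103 for F13a1.

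Other members fell less. Lysozyme 2, Lyz2, the most abundant of the genes named here, was at 43350 and 37730 CPM in Ly6C+ and 14370 and 12740 CPM in CD43+ pools (-1.79 ± 0.41, adjusted p = 0.0261); leaving out either CD43+ pool or the Ly6C+ pool of dataset 2 ended that call (adjusted p up to 0.182), as did scaling by library totals. The calcium-binding S100a4 was at 2558 and 3977 CPM against 872 and 1340 (-1.77 ± 0.17, adjusted p = 5.81e-05), and S100a6 at 3244 and 3680 CPM against 897 and 871 (-2.17 ± 0.16, adjusted p = 1.43e-05). Of the 15 tested S100 and annexin genes, 10 were lower and none higher, with a median of -1.10. The Ms4a genes, which encode membrane-spanning proteins, gave 6 lower and none higher of 9 tested (median -2.47). Ms4a4c was at 615 and 591 CPM in Ly6C+ against 58.9 and 33.9 CPM in CD43+ pools (-3.93 ± 0.25, adjusted p = 1.37e-05), and Ms4a6d at 132 and 128 against 26.1 and 16.9 (-2.82 ± 0.18, adjusted p = 6e-06). The one member of the Ly6C+ list that was higher was Klf4, a transcription factor needed for monocyte formation: 172 and 186 CPM in Ly6C+ against 468 and 521 CPM in CD43+ pools (1.26 ± 0.18, adjusted p = 0.000644).

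Chil3, a chitinase-like secreted protein often used to mark Ly6C+ monocytes, was at 1293 and 999 CPM in Ly6C+ and 79.3 and 51.2 CPM in CD43+ pools and did not pass (-4.51 ± 1.59, adjusted p = 0.143). In the fit to the 4 monocyte sums alone its adjusted p was 3.19e-08. Mgst1, a membrane-bound glutathione transferase, gave 330 and 485 CPM against 97.1 and 90.5 (adjusted p = 0.293, and 4.42e-06 by the monocyte sums alone). For both genes the 2 monocyte types did not overlap, which with 2 pools a side is weak evidence of a difference.

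**Figure D2:**
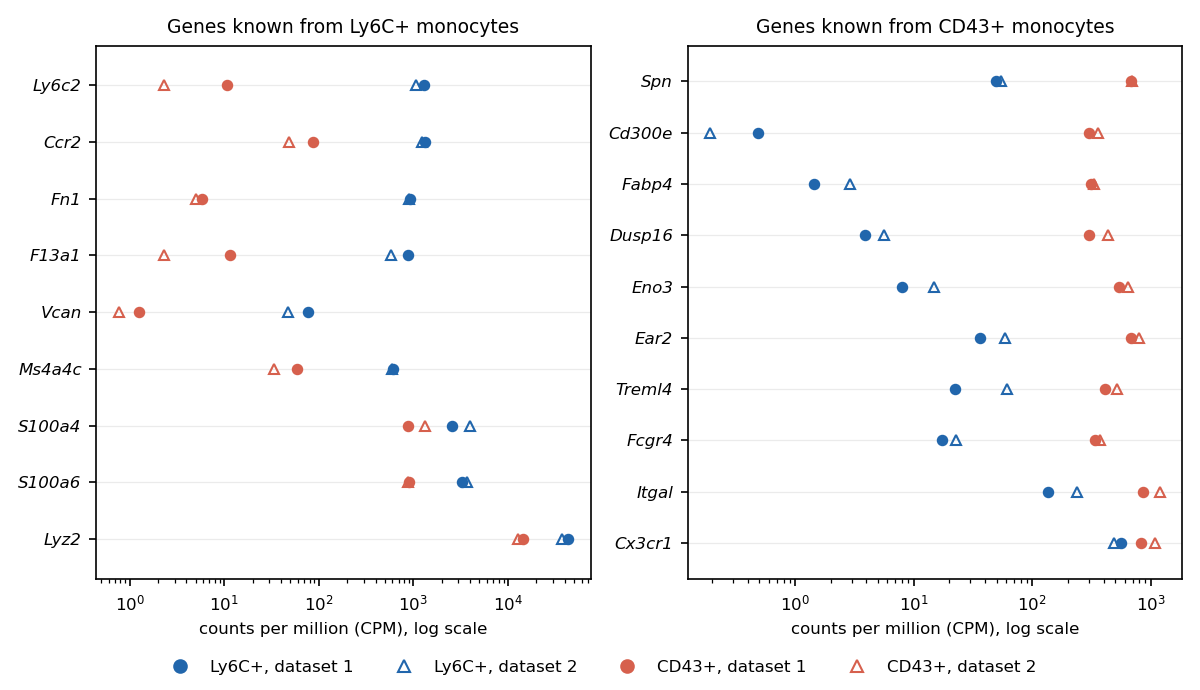
Levels in CPM on a log axis in each of the 4 pools (blue Ly6C+, red CD43+, filled circles dataset 1, open triangles dataset 2), for 9 genes known from Ly6C+ monocytes and 10 known from CD43+ monocytes. For every gene shown the 2 CD43+ pools lie on 1 side of the 2 Ly6C+ pools. Ly6c2 and Spn encode markers of the gates, so their separation was set by the sort. Cx3cr1 (559 and 488 against 828 and 1089 CPM), S100a4 and Lyz2 (43350 and 37730 against 14370 and 12740 CPM) are closest together.

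Genes known from CD43+ monocytes were higher in CD43+ cells for 31 of 35 tested, with none lower and a median of 3.29; fits without the CD43+ pool of dataset 1 or 2 called 19 and 17. This list holds Spn, a marker of the gate, so part of its outcome was set by the sort. Cd300e (ENSMUSG00000048498, chr11:115051917-115062177, minus strand, protein coding), an activating receptor of the CD300 family, was at 300.9 and 361 CPM in the CD43+ pools and at 0.485 and 0.192 CPM in the Ly6C+ pools. That is 1663 UMIs in CD43+ against 3 in Ly6C+ sums, a ratio of 1032 (exact 95% counting interval 352.5 to 5009, adjusted p = 3.15e-06). The lipid-binding protein Fabp4 (ENSMUSG00000062515, chr3:10204088-10208576, minus strand, protein coding) was at 310 and 331 CPM against 1.46 and 2.89 (6.94 ± 0.46, adjusted p = 0.000185). The phosphatase Dusp16, which acts on JNK kinases, was at 299 and 435 CPM against 3.88 and 5.58 (6.04 ± 0.23) and had the smallest p of all genes tested, 4.8e-07. These transcripts were close to absent from Ly6C+ pools.

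Several further members were already detectable in Ly6C+ pools. The muscle-type enolase Eno3 was at 8.01 and 14.8 CPM in Ly6C+ and 539 and 646 CPM in CD43+ pools (5.47 ± 0.30, adjusted p = 1.69e-05). Stap1, an adaptor below receptor kinases, was at 50.5 and 48.7 against 534 and 589 (3.30 ± 0.21, adjusted p = 6e-06). The adhesion receptor Adgre4 was at 41.5 and 74.8 against 361 and 556 (2.77 ± 0.23, adjusted p = 6.73e-05). Gngt2, a G-protein gamma subunit, was already at 423 and 571 CPM in Ly6C+ pools and at 2344 and 2407 in CD43+ pools (2.03 ± 0.28, adjusted p = 0.00145). Treml4, a receptor that binds dead cells, was at 22.1 and 60.8 CPM against 410 and 522 (3.29 ± 0.63, adjusted p = 0.0294), but without the CD43+ pool of dataset 1 or 2 its adjusted p was 0.133 and 0.201. Ear2, an eosinophil-type ribonuclease, was at 36.4 and 58.7 against 674 and 801 (3.74 ± 0.76, adjusted p = 0.0369) and lost its call without any 1 of the 4 pools (adjusted p up to 0.214). Its family holds near-identical copies, so its counts are uncertain.

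The 4 members that did not pass were Cx3cr1, Klf2, Cebpb and Apoc2. Cx3cr1, the fractalkine receptor that is commonly used to mark these cells, was at 559 and 488 CPM in Ly6C+ and 828 and 1089 CPM in CD43+ pools (0.68 ± 0.29, adjusted p = 0.135, and 0.0135 by the monocyte sums alone). Apoc2, an apolipoprotein that activates lipoprotein lipase, was at 324 and 335 CPM against 1446 and 1473 (adjusted p = 0.181, and 4.54e-06 by the monocyte sums alone). Cebpb, a factor that CD43+ monocytes are known to depend on, went opposite ways: 255 CPM in Ly6C+ and 599 in CD43+ cells of dataset 1, but 969 and 723 in dataset 2, so that the pools overlapped and the fit gave -0.03 ± 0.81 (adjusted p = 0.986). Klf2 was at 492 and 826 CPM against 722 and 992 (adjusted p = 0.756). Nr4a1 (ENSMUSG00000023034, chr15:101254269-101274795, plus strand, protein coding) was at 41.5 and 67.3 CPM against 264 and 221 (1.90 ± 0.45, adjusted p = 0.039), and lost its call without the CD43+ pool of dataset 1 or 2 (adjusted p = 0.184 and 0.236).

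Beyond the lists, the 15 largest differences each way among abundant genes added several enzymes. The protein cross-linking transglutaminases Tgm2 (4.13 and 7.7 CPM in Ly6C+ against 146 and 232 in CD43+ pools) and Tgm3 (0.485 and 0.962 against 69.3 and 56.2) were both higher, by 4.76 ± 0.36 (adjusted p = 0.000149) and 6.14 ± 0.41 (adjusted p = 1.45e-05). G0s2, an inhibitor of the lipase that breaks down stored triglyceride, was at 0.971 and 0.962 CPM against 60.2 and 53.1 (5.64 ± 0.34, adjusted p = 3.45e-06). L1cam, a neural-type adhesion molecule, was at 5.1 and 4.81 against 142 and 152 (4.68 ± 0.36, adjusted p = 0.000144). Pglyrp1, which binds bacterial peptidoglycan, was at 57.8 and 35.2 against 1131 and 1011 (4.42 ± 0.65, adjusted p = 0.014; adjusted p = 0.113 and 0.141 without the Ly6C+ pool of dataset 1 or 2). The beta-1 adrenergic receptor Adrb1, which was named after its values were seen, had 0 UMIs in both Ly6C+ pools and was at 43.6 and 67.8 CPM in CD43+ pools. Against the floor of 3 UMIs over both Ly6C+ pools it was at least 174.4-fold higher (adjusted p = 3.45e-06).

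In the other direction, the largest differences included several genes of unrelated roles. The actin-capping protein Capg was at 646 and 539 CPM in Ly6C+ and 42.3 and 16.6 CPM in CD43+ pools (-4.64 ± 0.28, adjusted p = 1.53e-05). Cd177, a surface protein otherwise known from neutrophils, was at 154 and 95.2 CPM against 0.83 and 1.93 (-6.76 ± 1.03, adjusted p = 0.0151), a call that did not hold without the CD43+ pool of dataset 1 or 2 (adjusted p = 0.13 and 0.112). Ms4a8a was at 84.2 and 96.2 CPM against 2.08 and 3.47 (-5.24 ± 0.73, adjusted p = 0.00847; adjusted p = 0.0927 and 0.1 without the same pools).

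The lists also set the 2 types apart cell by cell, once each cell was thinned to 1000 UMIs. Of the tested and untested members together, the Ly6C+ list gave a median of 63 and 60 UMIs in Ly6C+ cells and of 19 and 18 UMIs in CD43+ cells. The CD43+ list, which holds the gate gene Spn, gave 4 and 5 against 18 and 21 UMIs. The CD43+ sum exceeded the Ly6C+ sum in 43.9% of CD43+ cells in dataset 1 and 55.6% in dataset 2, but in 1 of 866 Ly6C+ cells of dataset 2 and 0 of 931 of dataset 1, which allows a share of up to 0.395% there (upper end of an exact Clopper-Pearson 95% interval). These sums depend on how abundant the listed genes are, and 130 and 180 of the CD43+ cells lay within 2 UMIs of equality. Intervals cover counting error only.

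**Figure D3:**
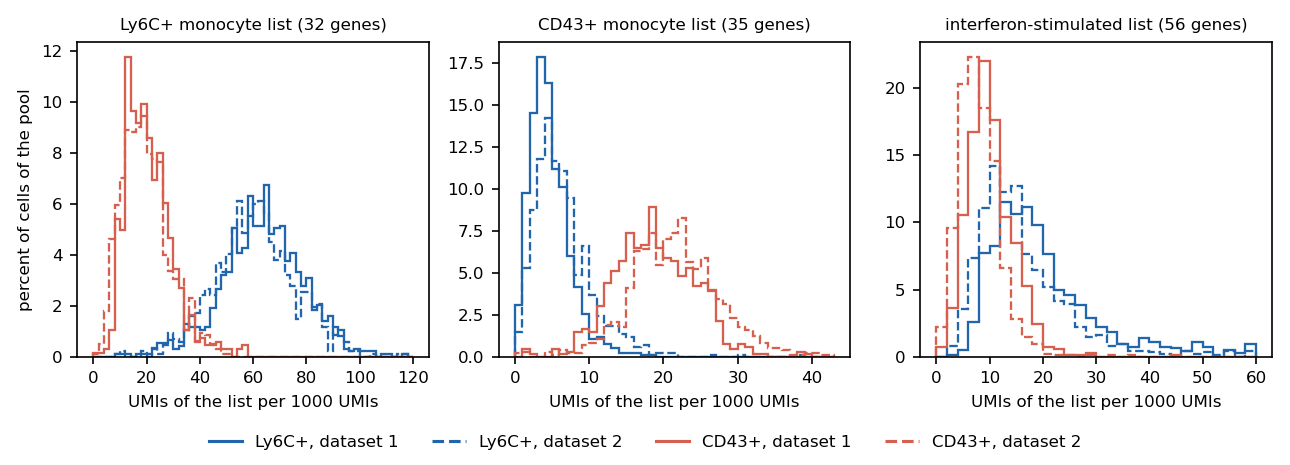
Distribution over cells (percent of the cells of a pool) of the UMIs of 3 gene lists per cell thinned to 1000 UMIs, for Ly6C+ (blue) and CD43+ (red) cells of dataset 1 (solid) and dataset 2 (dashed). The Ly6C+ and CD43+ lists separate the types with little overlap, at medians of 63 and 60 against 19 and 18 and of 4 and 5 against 18 and 21, while the interferon-stimulated list overlaps, at 17 and 14 against 9 and 7.

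Most interferon-stimulated genes were lower in CD43+ monocytes. Type I interferons bind surface receptors, and the kinases JAK1 and TYK2 then activate factors of the STAT family, among them STAT2, which enters a complex with IRF9 that binds the interferon-stimulated response element (ISRE) of target promoters. Of the 55 tested members, 47 were lower in CD43+ monocytes, 1 was higher, and the median was -2.16 (-2.03 with the 1 member that had no UMI in CD43+ cells set at its bound). In 51 of the 55 both datasets gave a lower value. The promoters below belong to the 5 lower members with the smallest p whose RefSeq promoter (GRCm38.p6, 250 bases before to 50 after the start) held the ISRE core GAAANNGAAA on either strand with every match before the start, leaving out Ifit3b, whose stretch is identical to that of Ifit3, and to Ifitm2, a member with the core that was not lower. Each is printed 5′ to 3′ on the gene's strand, from 30 bases before the first match to 30 after the last, with none past the start; capitals mark the core, or TTTCNNTTTC where it lies on the other strand, and overlapping matches run together.
Isg15, chr4:156200845-156200926, minus strand: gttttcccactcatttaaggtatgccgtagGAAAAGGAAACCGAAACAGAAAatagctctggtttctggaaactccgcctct
Slfn5, chr11:82951917-82951986, plus strand: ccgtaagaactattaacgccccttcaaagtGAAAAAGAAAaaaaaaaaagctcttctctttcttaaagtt
Ifit3, chr19:34583343-34583446, plus strand: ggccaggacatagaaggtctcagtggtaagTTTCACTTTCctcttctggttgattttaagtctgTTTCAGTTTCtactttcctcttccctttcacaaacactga
Ifit1, chr19:34640755-34640843, plus strand: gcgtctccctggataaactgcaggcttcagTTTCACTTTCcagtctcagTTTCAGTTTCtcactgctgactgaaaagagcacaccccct
Ifi203, chr1:173942493-173942557, minus strand: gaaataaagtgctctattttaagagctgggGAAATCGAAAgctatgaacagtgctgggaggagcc
Ifitm2, chr7:140955968-140956037, minus strand: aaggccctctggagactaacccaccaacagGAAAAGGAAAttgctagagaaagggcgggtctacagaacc

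The core was in 3.99% of all 27025 RefSeq promoters of this length (1079), in 4.16% of those of tested genes, and in 57.8% of those of the 45 tested interferon-stimulated genes with an entry. It was in 56.4% of the 39 that were lower and in 4 of the 6 that were not, too few to compare. Across all tested genes with an entry it was in 6.35% of the 1323 lower, 3.59% of the 1199 higher and 3.81% of the 6427 that did not pass. The 1323 include the 39 lower interferon-stimulated genes, which made up 22 of the 84 lower genes with the core. Of the 27 promoters of the CD43+ list, 1 held it. A match describes letters and is no evidence of binding.

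Isg15 (ENSMUSG00000035692, chr4:156199424-156200818, minus strand, protein coding), a ubiquitin-like protein whose promoter above has 3 overlapping cores, was at 252 and 172 CPM in Ly6C+ and at 14.9 and 8.86 CPM in CD43+ pools. Both CD43+ pools were far below both Ly6C+ pools, with a difference of -4.36 ± 0.18 (adjusted p = 6.68e-07). Slfn5, a Schlafen family member, was at 373 and 256 CPM against 22 and 10.8 (-4.47 ± 0.23, adjusted p = 2.29e-06). The RNA-binding antiviral proteins Ifit3 (131 and 53.5 against 4.98 and 2.7 CPM, adjusted p = 3.45e-06) and Ifit1 (37.6 and 36.9 against 2.49 and 1.54 CPM, adjusted p = 6e-06) differed by -4.72 ± 0.28 and -4.42 ± 0.29. Ifi203, of the DNA-sensing p200 family, was at 318 and 294 CPM against 47.7 and 28.5 (-3.22 ± 0.22, adjusted p = 1.43e-05). The 5 genes with printed promoters were chosen as lower members with the smallest p. That each was lower in both datasets with no overlap of pools is therefore no further evidence.

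Members with other roles went the same way. Rsad2 (viperin, which blocks viral replication) was at 69.2 and 51.2 CPM against 7.89 and 3.08 (-3.68 ± 0.33, adjusted p = 0.000101). Oasl2, of the oligoadenylate synthetase family, was at 145 and 82.7 CPM against 13.7 and 6.55 (-3.69 ± 0.20, adjusted p = 1.78e-06). Usp18, which removes ISG15 and damps the receptor, was at 62.6 and 32.3 CPM against 5.81 and 0.77 (-4.06 ± 0.41, adjusted p = 0.000293). The GTPase Ifi47 (110 and 87 CPM against 14.1 and 7.7) and the chaperone Rtp4 (82.8 and 68.5 against 8.72 and 1.54) were lower as well, with differences of -3.39 ± 0.20 and -4.14 ± 0.38 (adjusted p = 2.92e-06 and 0.000222). Every pair of CD43+ pools was below both Ly6C+ pools. Outside the list, Ifi211 of the p200 family was among the largest differences (186 and 115 against 13.7 and 6.93 CPM, -4.10 ± 0.38, adjusted p = 0.000493). Siglec1, also outside it and known to respond to type I interferon, a sialic acid-binding adhesion receptor of macrophages, had 79 UMIs in Ly6C+ and 0 in CD43+ sums and was at least 14.1-fold lower against a floor of 3 UMIs over both CD43+ pools (adjusted p = 0.00424).

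The 8 members that were not lower included abundant ones. Ifitm3, a membrane protein that blocks virus entry, was lower (6771 and 5492 CPM against 3467 and 2388, -1.29 ± 0.16, adjusted p = 0.000235), but its neighbour in the family, Ifitm2, was at 1474 and 1475 against 1555 and 1770 CPM (-0.03, adjusted p = 0.916) although its promoter holds the core. Ly6e was at 1965 and 1551 CPM against 2274 and 1760 (-0.01, adjusted p = 0.979). Outside the list, the interferon-inducible T cell chemokine Cxcl10, named after its values were seen, was at 70.9 and 56.4 CPM against 2.08 and 1.16 and did not pass (adjusted p = 0.0824, and 1.25e-07 by the monocyte sums alone). The member Ifi205 was at 64.8 and 50.4 CPM against 4.57 and 0.385 (adjusted p = 0.0522, and 2.1e-06 by the monocyte sums alone). The 1 member that was higher, Dtx3l, an E3 ubiquitin ligase, was at 57 and 51.2 CPM against 82.6 and 84.7 (0.43 ± 0.14, adjusted p = 0.0417), with adjusted p = 0.0558 by the monocyte sums alone, and it did not pass without any 1 of the 4 pools (adjusted p up to 0.265).

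The list's level also ranged widely among Ly6C+ cells. At 1000 UMIs a cell, its 5th to 95th percentile ran from 8 to 42 and from 6 to 32 UMIs in Ly6C+ cells, against 4 to 17 and 2 to 14 in CD43+ cells. The 10% of Ly6C+ cells with the most held 22.9% and 23.2% of the list's UMIs, and the 10% of CD43+ cells with the most 19.0% and 20.1%. Isg15 was seen in 13.3% and 10.5% of the thinned Ly6C+ cells and in 1.21% and 0.735% of CD43+ cells.

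The genes that sense and relay interferon did not move as 1 group: of 35 tested, 5 were higher and 14 lower (median -0.36). Of the receptor chains for type I interferon, Ifnar1 was at 78.2 and 66.4 CPM in Ly6C+ and 81.3 and 83.6 in CD43+ pools (-0.01, adjusted p = 0.976), and Ifnar2 at 225 and 223 against 283 and 270 (0.10, adjusted p = 0.642). Neither passed. Both Stat2 and Irf9, whose products act in the ISRE-binding complex, were lower. Stat2 was at 70.9 and 43.3 CPM against 22.4 and 18.5 (-1.66 ± 0.20, adjusted p = 0.000196), and Irf9 at 97.6 and 69.5 against 51 and 37 (-1.12 ± 0.14, adjusted p = 0.00028).

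Irf7, the factor that amplifies type I interferon production, was at 234 and 142 CPM in Ly6C+ and 63.1 and 27 CPM in CD43+ pools (-2.31 ± 0.26, adjusted p = 0.000511). Sensors of nucleic acid in the cytosol were lower: the RNA sensors Ddx58 (RIG-I; 72.6 and 41.5 against 29.1 and 21.2 CPM, -1.36 ± 0.20, adjusted p = 0.000782) and Dhx58 (47.1 and 31.2 against 9.55 and 10.8 CPM, -2.11 ± 0.21, adjusted p = 6.72e-05), and Tmem173 (STING, which relays DNA sensing; 77.7 and 62.9 against 36.1 and 25.8 CPM, -1.39 ± 0.16, adjusted p = 0.000149). The endosomal RNA receptor Tlr7 was at 40.3 and 49.8 CPM against 101 and 118, without overlap, and did not pass (adjusted p = 0.354, and 0.000319 by the monocyte sums alone). Its chaperone Unc93b1 was lower, at 335 and 468 CPM against 179 and 177 (-1.36 ± 0.17, adjusted p = 0.000288). Stat3, which relays interleukin 6 and 10, was higher, at 90.8 and 105 against 186 and 274 CPM (1.01 ± 0.17, adjusted p = 0.0016). So was its feedback inhibitor Socs3 (16.5 and 36.2 against 74.7 and 100 CPM, 1.52 ± 0.33, adjusted p = 0.0172), but not without the CD43+ pool of dataset 1 or 2 (adjusted p = 0.1 and 0.18).

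**Figure D4:**
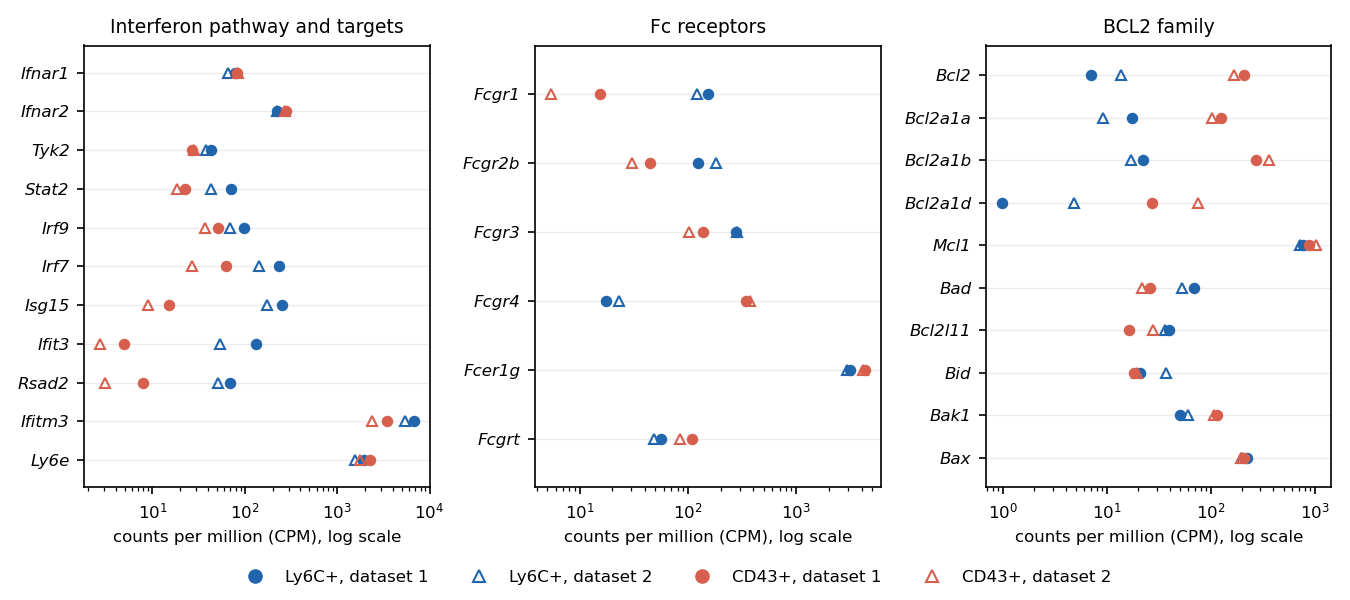
Levels in CPM on log axes in the 4 pools (blue Ly6C+, red CD43+, filled circles dataset 1, open triangles dataset 2) for interferon signalling and its targets, Fc receptors and the BCL2 family. The interferon receptor chains and Ly6e sit together, whereas Isg15 and Ifit3 lie apart; Fcgr4 and Bcl2 are to the right in CD43+ pools, and Fcgr1 is to the left.

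Of 63 transcription factors tested, 23 were higher and 9 lower (median 0.10). Ets1, better known from lymphocytes, was at 0.728 and 0.385 CPM in Ly6C+ and 58.1 and 114 CPM in CD43+ pools (7.06 ± 0.57, adjusted p = 0.000128). The repressor Bcl6 was at 26.9 and 33.9 against 149 and 220 CPM (2.38 ± 0.14, adjusted p = 3.45e-06), and Pou2f2 (OCT2) at 366 and 446 against 1746 and 1995 CPM (1.99 ± 0.19, adjusted p = 5.58e-05). The lipid-sensing nuclear receptors Pparg (4.13 and 5.96 against 72.2 and 70.5 CPM, 3.58 ± 0.31, adjusted p = 4.36e-05) and Nr1h3 (LXR alpha; 39.6 and 19.6 against 93 and 70.5 CPM, 1.33 ± 0.20, adjusted p = 0.000961) were higher. So were Bhlhe40 (5.83 and 8.27 against 61.4 and 71.6 CPM, 3.02 ± 0.24, adjusted p = 1.53e-05) and Runx2 (9.22 and 11.9 against 63.9 and 91.7 CPM, 2.66 ± 0.28, adjusted p = 0.00024).

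Factors of granulocyte and monocyte development were among the lower ones. Cebpa was at 129 and 121 CPM in Ly6C+ and 41.1 and 21.2 CPM in CD43+ pools (-2.25 ± 0.21, adjusted p = 6.36e-05), and Cebpd at 129 and 181 against 40.7 and 68.5 CPM (-1.73 ± 0.17, adjusted p = 6.3e-05). Batf3, a factor of dendritic cell development, was at 73.3 and 91.8 against 18.3 and 10.4 CPM (-2.73 ± 0.26, adjusted p = 0.000132). Spi1 (PU.1), which all myeloid cells need, was at 674 and 635 against 1089 and 919 CPM (0.41, adjusted p = 0.0723), and Irf8 at 328 and 272 against 198 and 168 CPM (-0.92, adjusted p = 0.177, and 0.000824 by the monocyte sums alone).

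Notch signalling through NOTCH2 is known to favour the CD43+ type. Of 18 tested Notch genes, 3 were higher and 4 lower, beside 13.5% and 14.5% over all genes tested. Notch2 itself was at 60.7 and 92.2 CPM in Ly6C+ and 80.1 and 101 CPM in CD43+ pools, which overlapped (0.07, adjusted p = 0.82). Notch1 was lower, at 33.5 and 41.4 against 10.8 and 11.9 CPM (-1.93 ± 0.24, adjusted p = 0.000246), and so was the DNA-binding partner Rbpj, at 103 and 89.3 against 61 and 57.4 CPM (-0.90 ± 0.15, adjusted p = 0.00178). The Notch target Hes1 was higher, at 8.98 and 31.9 against 77.6 and 143 CPM (2.28 ± 0.36, adjusted p = 0.00561; 0.057 and 0.0743 without the CD43+ pool of dataset 1 or 2). A second target, Nrarp, had 2 UMIs in Ly6C+ and 32 in CD43+ sums, a ratio of 29.8 (counting interval 7.60 to 256.5, adjusted p = 0.00157).

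Fc receptors, which bind the constant part of IgG, went both ways. Fcgr4 (ENSMUSG00000059089, chr1:171018920-171029761, plus strand, protein coding), an activating receptor, was at 17.5 and 22.9 CPM in Ly6C+ and 340 and 372 CPM in CD43+ pools (3.92 ± 0.26, adjusted p = 4.36e-05). The high-affinity receptor Fcgr1 was at 154 and 121 against 15.4 and 5.39 CPM (-4.06 ± 0.37, adjusted p = 0.000402). The inhibitory Fcgr2b was at 123 and 181 against 44.4 and 30.4 CPM (-2.19 ± 0.28, adjusted p = 0.0016). Fcgr3, a further activating receptor, was at 276 and 286 against 136 and 102 CPM (-1.48 ± 0.26, adjusted p = 0.00599; 0.0881 without the CD43+ pool of dataset 2). The signalling chain that the activating receptors share, Fcer1g, was at 3132 and 2946 against 4290 and 4157 CPM and did not pass (0.27 ± 0.15, adjusted p = 0.211). In all, 2 of 8 tested were higher and 3 lower.

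Receptors that guide cells through blood and tissue gave 5 higher and 4 lower of 20 tested. Cxcr4, which holds cells in marrow, was at 8.98 and 21.9 CPM in Ly6C+ and 33.2 and 85.9 CPM in CD43+ pools (1.72 ± 0.18, adjusted p = 8.36e-05). The sphingosine-1-phosphate receptors S1pr4 (7.04 and 5.58 against 24.5 and 30 CPM, 1.92 ± 0.28, adjusted p = 0.000797) and S1pr5 (10.2 and 9.81 against 223 and 183 CPM, 4.15 ± 0.90, adjusted p = 0.045) were higher; S1pr5 lost its call without any 1 of the 4 pools (adjusted p up to 0.242). Ptafr, the receptor for platelet-activating factor, was lower, at 47.1 and 75.2 against 15.8 and 15 CPM (-2.19 ± 0.25, adjusted p = 0.0003).

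Of 30 adhesion genes tested, 12 were higher and 7 lower (median 0.32). The alpha chain of LFA-1, Itgal, was at 135 and 240 CPM in Ly6C+ and 857 and 1182 CPM in CD43+ pools (2.24 ± 0.38, adjusted p = 0.0105; 0.069 and 0.14 without the CD43+ pool of dataset 1 or 2), and its beta chain Itgb2 at 208 and 305.5 against 552 and 802 CPM (1.19 ± 0.15, adjusted p = 0.000261). Itgam, the alpha chain of Mac-1, which pairs with the same beta chain, was at 263 and 229 against 415 and 282 CPM (0.28 ± 0.15, adjusted p = 0.2). Both chains of VLA-4, Itga4 (513 and 459 against 1106 and 1398 CPM) and Itgb1 (201 and 174 against 660 and 604 CPM), were higher, by 1.17 ± 0.18 (adjusted p = 0.00104) and 1.55 ± 0.14 (adjusted p = 3.98e-05). Pecam1 (CD31, of endothelial junctions and platelets) was at 6.55 and 2.31 against 99.2 and 175 CPM (4.82 ± 0.60, adjusted p = 0.00585; 0.0682 without the Ly6C+ pool of dataset 2).

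Itga1, an integrin alpha chain for collagen, was lower, at 63.1 and 45 CPM in Ly6C+ against 4.15 and 1.54 CPM in CD43+ pools (-4.50 ± 0.34, adjusted p = 1.46e-05). Embigin, Emb, was at 594 and 507 against 174 and 174 CPM (-1.86 ± 0.15, adjusted p = 1.69e-05). Platelet markers summed to 9.47 and 4.62 CPM in Ly6C+ and 23.2 and 49.3 CPM in CD43+ pools. Most of these CD43+ sums was the integrin chain Itgb3, at 6.55 and 2.89 against 21.6 and 48.1 CPM. The platelet genes Pf4, Ppbp, Gp1bb, Gp1ba, Gp9 and Treml1 had no UMI in CD43+ pools. The part of platelet RNA in the level of Pecam1 was not tested.

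Paired activating and inhibitory receptors went both ways, 13 higher and 12 lower of 40. The activating receptor Trem1 was at 1.21 and 0.962 CPM in Ly6C+ and 22.4 and 24.6 CPM in CD43+ pools (4.24 ± 0.42, adjusted p = 6.84e-05), and Cd300ld at 32.8 and 35.4 against 511 and 613 CPM (3.83 ± 0.18, adjusted p = 1.1e-06). The collagen-binding inhibitory receptor Lair1 was at 32.3 and 47.1 against 329 and 368 CPM (2.91 ± 0.49, adjusted p = 0.0152), a call lost without any 1 pool (adjusted p up to 0.138). The activating MHC class I receptors Lilra6 (76.7 and 61 against 19.1 and 11.9 CPM, -2.37 ± 0.18, adjusted p = 1.46e-05) and Pira2 (103 and 99.5 against 30.3 and 21.2 CPM, -2.19 ± 0.17, adjusted p = 1.5e-05) were lower; they belong to a family of near-identical genes, so the split of counts among them is uncertain.

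C-type lectins gave 2 higher and 6 lower of 21 tested (median -0.58). The inhibitory lectin Clec4a2 was at 199 and 202 CPM in Ly6C+ and 27.8 and 30 CPM in CD43+ pools (-3.00 ± 0.16, adjusted p = 1.78e-06). Clec4e (Mincle, which senses mycobacterial glycolipid) was at 42.2 and 44.4 against 127 and 198 CPM and did not pass (1.72 ± 0.65, adjusted p = 0.141, and 1.71e-05 by the monocyte sums alone). Among 23 scavenger and dead-cell receptors, 4 were higher and 3 lower, shares close to the 13.5% and 14.5% over all genes tested. Cd36, which takes up oxidized lipid, was at 5.58 and 9.04 against 168 and 137 CPM (4.10 ± 0.88, adjusted p = 0.0425) and lost its call without any 1 pool (adjusted p up to 0.232). Marco had no UMI in Ly6C+ pools and was at least 36.6-fold higher against the floor of 3 UMIs over both pools (adjusted p = 0.000462; 0.0838 without the Ly6C+ pool of dataset 2). Axl, which recognises phosphatidylserine, was lower, at 40 and 20.8 against 7.89 and 5.01 CPM (-2.40 ± 0.33, adjusted p = 0.000892), and Cd93 too, at 48.5 and 53.1 against 4.57 and 5.01 CPM (-3.62 ± 0.42, adjusted p = 0.00105).

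Genes of lipid handling were more often higher, 17 against 4 lower of 38 tested (median 0.64, against 0.01 over all genes). Besides Fabp4 and Pparg, the phospholipid transfer protein Pltp was at 57 and 61.6 CPM in Ly6C+ and 290 and 314 CPM in CD43+ pools (2.14 ± 0.13, adjusted p = 3.85e-06). The cholesterol exporters Abcg1 (31.6 and 32.9 against 83.4 and 131 CPM, 1.5 ± 0.16, adjusted p = 0.000103) and Abca1 (7.28 and 6.93 against 24.1 and 42 CPM, 2.0 ± 0.33, adjusted p = 0.0031; 0.0771 without the Ly6C+ pool of dataset 2), both known LXR targets, were higher. Npc2, which carries cholesterol out of lysosomes, was lower, at 1819 and 1307 against 444 and 327 CPM (-2.22 ± 0.15, adjusted p = 7.62e-06). Lpl, lipoprotein lipase, was at 108 and 143 against 19.1 and 42 CPM (-2.25 ± 0.58, adjusted p = 0.0561, and 3.86e-06 by the monocyte sums alone). In cholesterol synthesis and uptake, 2 of 26 genes were higher and 2 lower.

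MHC class II genes, whose products present peptide to CD4 T cells, gave 4 lower and none higher of 13 tested. The master regulator Ciita was at 67 and 60.2 CPM in Ly6C+ and 21.2 and 15 CPM in CD43+ pools (-2.02 ± 0.25, adjusted p = 0.000367). H2-DMa, which loads peptide, was at 386 and 385 against 110 and 71.6 CPM (-2.29 ± 0.23, adjusted p = 0.000117), and the lysosomal thiol reductase Ifi30 at 838 and 924 against 242 and 171 CPM (-2.29 ± 0.24, adjusted p = 0.000175). The presenting chain H2-Aa did not pass (893 and 862 against 701 and 273 CPM, -1.09 ± 0.50, adjusted p = 0.182, and 0.0144 by the monocyte sums alone), nor did the invariant chain Cd74 (4007 and 2958 against 3260 and 1012 CPM, -1.02 ± 0.43, adjusted p = 0.146, and 0.0138). The list's median was -0.41 in dataset 1 and -1.76 in dataset 2. LysoDC and tissue phagocyte markers were higher in dataset 1, and B cell markers summed to 262 and 201 CPM in Ly6C+ and 290 and 211 CPM in CD43+ pools. Most of these sums was Ighm, at 209 and 173 against 163 and 108 CPM. Of 12 tested B cell markers, 5 were higher and 1, Ighm, was lower. The light chain gene Igkc was at 10.2 and 0.962 against 54 and 26.6 CPM. The part of all these markers in the class II levels was not tested.

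The BCL2 family, which sets the threshold of cell death, had 7 higher and 3 lower of 17 tested. The death inhibitor Bcl2 was at 7.04 and 13.7 CPM in Ly6C+ and 208 and 166 CPM in CD43+ pools (3.92 ± 0.33, adjusted p = 0.00028). Its relatives Bcl2a1a (17.5 and 9.23 against 125 and 102 CPM) and Bcl2a1b (22.1 and 17.1 against 273 and 361 CPM) were higher by 2.94 ± 0.20 (adjusted p = 8.48e-06) and 3.81 ± 0.18 (adjusted p = 1.1e-06), though these copies are nearly identical and the split between them is uncertain. The death-promoting Bad was lower, at 68.2 and 52.7 against 25.7 and 21.9 CPM (-1.54 ± 0.16, adjusted p = 8.69e-05), while the effector Bak1 was higher, at 50.5 and 60.6 against 114 and 107 CPM (0.78 ± 0.16, adjusted p = 0.00456; 0.0562 without the Ly6C+ pool of dataset 1). Mcl1, the most abundant member, was at 763 and 718 against 879 and 1021 CPM (0.16, adjusted p = 0.496).

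Inflammatory mediators gave 7 higher and 6 lower of 45 tested, shares close to the 13.5% and 14.5% over all genes tested, and single genes differed widely. Ltb, the membrane-bound partner of lymphotoxin, was at 10.7 and 8.85 CPM in Ly6C+ and 314 and 273 CPM in CD43+ pools (4.71 ± 0.23, adjusted p = 1.78e-06). Tnf was at 7.28 and 9.23 against 24.9 and 28.9 CPM (1.49 ± 0.24, adjusted p = 0.00131). Il1b was at 61.9 and 49.2 against 136 and 271 CPM and did not pass (1.66 ± 0.50, adjusted p = 0.0749, and 0.00115 by the monocyte sums alone). Il18 was lower, at 54.9 and 47.9 against 15.8 and 23.5 CPM (-1.59 ± 0.20, adjusted p = 0.000261), as was the inflammasome sensor Nlrp3, at 68.2 and 41.5 against 19.9 and 26.6 CPM (-1.39 ± 0.22, adjusted p = 0.00123). The CCR2 ligand Ccl2 had no UMI in CD43+ pools and was at least 13.6-fold lower against the floor of 3 UMIs over both (adjusted p = 0.00129).

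Genes of oxidative phosphorylation, the mitochondrial chain that makes ATP, were lower as a group with small differences: 44 of 69 tested were lower and none higher, with a median of -0.51 and the same lower sign in both datasets for 64. Ndufs8 of complex I was at 126 and 142 CPM in Ly6C+ and 65.6 and 69.7 CPM in CD43+ pools (-1.19 ± 0.13, adjusted p = 0.000132). Cytochrome c, Cycs, was at 230 and 182 against 143 and 102 CPM (-0.96 ± 0.16, adjusted p = 0.00177). When library totals replaced TMM factors, 27 of the 69 were lower and the median was -0.30, and without the dataset block 25 were. Leaving out the CD43+ pool of dataset 1 or 2, or the Ly6C+ pool of dataset 2, gave 28, 8 and 13 lower members. At 1000 UMIs a cell the group held a median of 20 and 21 UMIs in Ly6C+ and 17 and 16 in CD43+ cells. Ribosomal protein genes, shown for scale, were lower for 46 of 82 with a median of -0.50. Glycolysis gave 5 higher and 4 lower of 31, also close to the 13.5% and 14.5% over all genes, with the lactate exporter Slc16a3 at 53.1 and 45.4 against 218 and 242 CPM (2.03 ± 0.20, adjusted p = 9.41e-05) and hexokinase 2, Hk2, at 95.1 and 81.8 against 56 and 49.7 CPM (-0.94 ± 0.15, adjusted p = 0.00132).

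Lysosomal genes were lower for 11 and higher for 4 of 41. The protease cathepsin B, Ctsb, was higher, at 710 and 582 CPM in Ly6C+ against 1625 and 1797 CPM in CD43+ pools (1.22 ± 0.20, adjusted p = 0.00138), while cathepsin C, Ctsc, which activates granule proteases, was lower, at 460 and 521 against 179 and 128 CPM (-1.90 ± 0.20, adjusted p = 8.95e-05). Genes of the cytoskeleton gave 17 higher and 12 lower of 56. The intermediate filament protein vimentin, Vim, was at 1925 and 2533 against 714 and 714 CPM (-1.84 ± 0.18, adjusted p = 6.73e-05). Moesin, Msn, which links actin to the membrane and binds the tail of CD43, was at 515 and 436 against 1282 and 1334 CPM (1.27 ± 0.15, adjusted p = 0.000221), and filamin, Flna, at 408 and 358 against 886 and 868 CPM (0.996 ± 0.164, adjusted p = 0.00146).

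In the cell cycle, 8 of 45 genes were higher and 4 lower (median 0.65), beside 13.5% and 14.5% over all genes tested. The members that were higher include genes of both arrest and division. Of those that hold cells out of division, Cdkn1b (p27; 96.8 and 77.7 CPM in Ly6C+ against 231 and 268 in CD43+ pools, 1.32 ± 0.15, adjusted p = 0.000132) and Rb1 (41 and 38.5 against 115 and 121 CPM, 1.36 ± 0.15, adjusted p = 0.000112), were higher. Top2a, the topoisomerase of dividing cells, was higher too, at 4.37 and 0.962 against 16.2 and 7.7 CPM (2.03 ± 0.45, adjusted p = 0.0109; 0.101 without the CD43+ pool of dataset 1). The proliferation marker Mki67 was low in all pools, at 9.95 and 3.65 against 8.3 and 1.54 CPM (-0.65, adjusted p = 0.456). Immediate early genes, which the handling of cells can raise, gave 8 higher and 5 lower of 36, beside 13.5% and 14.5% over all genes. Among them Fos was at 379 and 184 against 85.5 and 33.5 CPM (-2.46 ± 0.22, adjusted p = 8.51e-05) and Nfkbiz at 38.8 and 35.8 against 205 and 241 CPM (2.38 ± 0.17, adjusted p = 8.84e-06). The summed level of immediate early genes per cell was alike at 6 and 5 of 1000 UMIs in both types.

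**Figure D5:**
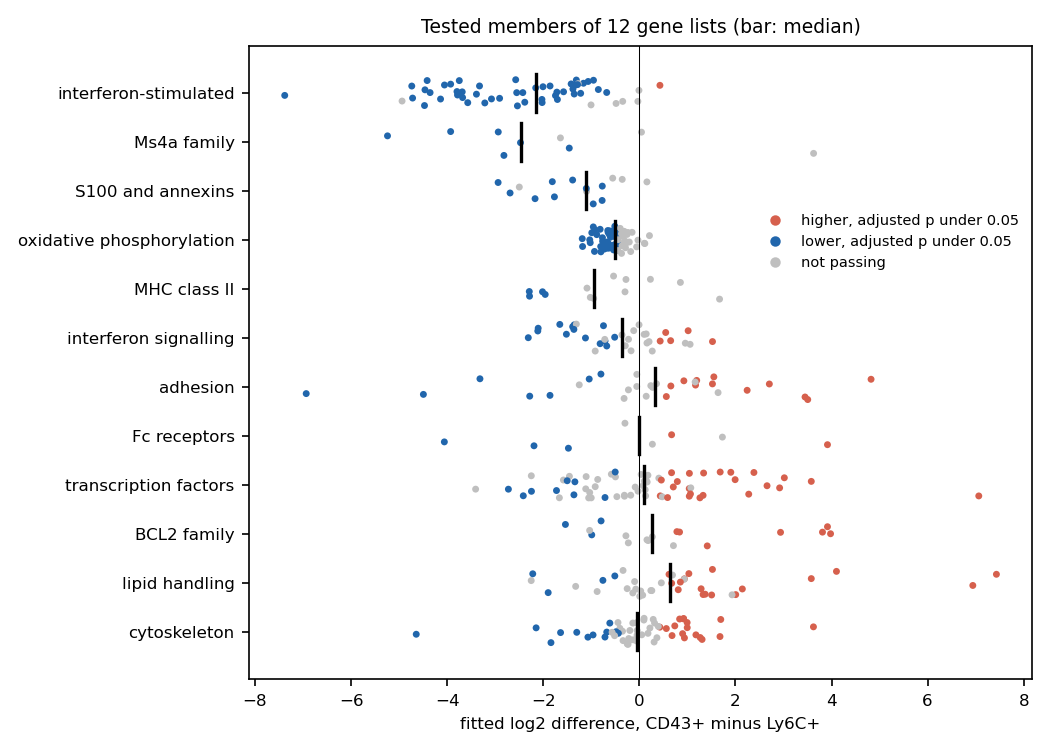
Fitted log2 differences of the tested members of 12 gene lists, CD43+ minus Ly6C+, with higher (red), lower (blue) and not passing (grey) members and the median as a bar. Medians run from -2.47 for the Ms4a family and -2.16 for interferon-stimulated genes to 0.64 for lipid handling. The adhesion, Fc receptor and transcription factor lists have members far out on both sides. BCL2 members that passed reach further on the higher side than on the lower.

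Markers of other blood cells were measured beside these groups. Neutrophil markers summed to 191 and 172 CPM in Ly6C+ and 93 and 86.7 CPM in CD43+ pools, with 3 of 6 tested lower. Erythroid markers summed to 10.7 and 7.5 against 34.4 and 413 CPM, the CD43+ pool of dataset 2 standing apart, and none of 5 passed. With cells thinned to 1000 UMIs, 1 cell of that pool held 351 erythroid UMIs and 946 of its 952 cells held none. B cell markers were higher for 5 and lower for 1 of 12, T and NK cell markers summed to 21.4 and 9.43 against 35.7 and 2.31 CPM, and conventional dendritic cell markers to 230 and 208 against 100 and 43.5 CPM. Progenitor markers were at 22.1 and 26.5 against 3.74 and 1.16 CPM, with 3 of 5 lower; among them the granule protease Prtn3 had no UMI in CD43+ pools and was at least 27.0-fold lower against the floor of 3 UMIs over both (adjusted p = 0.0166; 0.0705 and 0.0777 without the CD43+ pool of dataset 1 or 2). Basophil and eosinophil markers had no UMI in any pool. With cells holding 2 or more UMIs of B, T and NK, platelet or erythroid markers left out, a setting chosen after the data were seen, 1177 genes were higher and 1324 lower.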

How the data were processed

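Counts of UMIs for 32285 genes and for the hashtags of each cell were used as the authors deposited them, without normalization. Cell Ranger 6.0.1 made them per the file headers, and the submitters' processing notes give Cell Ranger 2.0.0 and mm10. HTODemux (Seurat 5.3.0, quantile 0.99) assigned hashtags within each dataset. Of 11878 barcodes in dataset 1, 8343 had 1 hashtag, 2422 had several and were dropped as doublets, and 1113 had none; of 13111 in dataset 2 the numbers were 8516, 4572 and 23. Dominance of 1 hashtag in dataset 1 was weak (see the shares in the report), so some cells there may carry a wrong population.

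Counts were summed per population and dataset. They were tested with edgeR 4.0.16 in R 4.3.3 (TMM, filterByExpr, robust quasi-likelihood fit, two-sided, Benjamini-Hochberg over 11458 genes, threshold 0.05). The fit had 3 residual and a median of 7.65 prior degrees of freedom and a biological coefficient of variation of 0.141, and its script was tested on simulated data. Each dataset was a separate pool of mice, per the labels, so its number is the block. Cells were thinned to 1000 UMIs for values per cell, and shares have exact Clopper-Pearson 95% intervals. Alternatives used DESeq2 1.42.0, limma 3.58.1 (loaded with edgeR) and Python 3.11.15 with numpy 2.4.6, scipy 1.17.1, pandas 2.3.3 and matplotlib 3.10.9.

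The comparison, the 43 gene lists and the other choices were made with earlier results of these data known, so no list is independent evidence of its direction. Genes were named if they were among the 15 largest differences each way (past the threshold, same sign in both datasets, 50 CPM or more in both pools of the higher population, and not mitochondrial, ribosomal, haemoglobin, immunoglobulin or unnamed), the 6 members of a list with the smallest p, any member of a list of up to 20 genes or of the marker, interferon and transcription factor lists, or a member with opposite signs in the datasets. Abca1, Adrb1, Cxcl10, Flna, Lpl, Mki67, Siglec1 and Top2a fall outside this rule and were chosen after their values were seen. A few genes that the rule names are not reported here. Gene positions were matched by identifier for 99.9% of tested genes (GENCODE M21, GRCm38), and promoters come from RefSeq GRCm38.p6.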

Additional observations from a re-analysis of the deposited data

Results flagged for a closer look

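In 7 named genes the 2 datasets went opposite ways, and in none of them was the difference between datasets tested. Values are log2 differences of TMM-scaled CPM + 1, CD43+ minus Ly6C+, so they can differ in sign from the CPM in the report. The factor Cebpb gave 1.08 in dataset 1 and -0.68 in dataset 2, the only one of the 7 where both were above 0.5 in size. The remaining 6 had small values: -0.07 and 0.00 for Ifitm2, 0.07 and -0.08 for Ly6e, -0.08 and 0.07 for the receptor chain Ifnar1, 0.25 and -0.12 for Notch2, -0.04 and 0.28 for Zeb2, and -0.10 and 0.30 for lysozyme 1, Lyz1. With 2 pools a population, no pool could be tested as standing apart from the others.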

How the results depend on the processing

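No named gene that was called reversed under any alternative run, and single genes beyond those named were not followed. However, the medians of 9 lists changed sign with library totals (chemokine receptors, cytoskeleton, Fc receptors, glycolysis, growth factor receptors, paired receptors, iron and haem, NADPH oxidase and Toll-like receptors), so no direction is given for these lists. Against 3202 calls, fits gave 1827 when each cell was thinned to 1000 UMIs (864 higher, 963 lower, with fewer genes tested, 8182) and 1322 to 2411 without 1 pool (642 to 1118 higher, 680 to 1367 lower). Fits without 1 pool called 17 to 23 members of the CD43+ list higher (31 with all pools), 8 to 16 of the Ly6C+ list lower (16) and 8 to 38 of oxidative phosphorylation lower (44); with library totals the latter had 27 and with no replicate block 25. Interferon-stimulated genes had 37 to 50 lower members under every alternative. The fit with no replicate block, that is without the pairing by dataset, gave 1083 higher and 1168 lower calls, and DESeq2 1321 and 1434. Of 186 named genes called, 126 were still called without any 1 pool, 60 were not without at least 1, and all 186 kept their sign. Among genes named in the report, library totals ended the call of Lyz2 and gave one to Spi1 (0.61, adjusted p = 0.00317), Fcer1g (0.48, 0.00557), Itgam (0.48, 0.03) and Il1b (1.86, 0.0499), all higher; no block those of Dtx3l, Nr1h3, Hes1, Cxcr4 and Marco; hashtags scaled to their medians those of Nr4a1 and Prtn3; and no filter on low counts those of Ly6c2, Ear2, Treml4, Pglyrp1, Cd177, Dtx3l, S1pr5 and Cd36. The cause was not tested. A dominant hashtag of 80% and the removal of cells with tissue phagocyte UMIs were planned but left too few cells in dataset 1 and were not run. The kmeans, scaled-hashtag, library-total and marker-cell settings were chosen after seeing the data. In the shallowest pool, CD43+ of dataset 1, 1 UMI was 0.415 CPM, which limits values of genes at a few CPM.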

Other observations

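Some gene groups of the lists were not described above. Of 14 tested coagulation genes 2 were higher and 3 lower, beside 13.5% and 14.5% over all genes tested. Clotting factor V, F5, was at 22.8 and 16.5 CPM in Ly6C+ and 1.25 and 1.16 CPM in CD43+ pools (-4.24 ± 0.56, adjusted p = 0.000405). Thrombomodulin, Thbd, which turns thrombin toward anticoagulation, was at 10.2 and 15.4 against 59.8 and 86.7 CPM (2.29 ± 0.53, adjusted p = 0.0327), a call lost without any 1 of the 4 pools (adjusted p up to 0.204). Of 21 iron and haem genes 1 was higher and 6 lower, with transferrin, Trf, at 310 and 235 against 94.6 and 87.4 CPM (-1.77 ± 0.14, adjusted p = 1.53e-05). Of 27 growth factor and cytokine receptors 8 were higher and 7 lower. Tgfbr1, a signalling chain of the TGF-beta receptor, was at 35.4 and 42.1 against 136 and 132 CPM (1.58 ± 0.22, adjusted p = 0.000879), and Il10ra, of the interleukin 10 receptor, at 122 and 92 against 223 and 277 CPM (1.04 ± 0.17, adjusted p = 0.00151). In each of these the pools of the 2 types did not overlap, which with 2 pools a side is weak evidence.

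Toll-like receptor genes gave 2 higher and 5 lower of 28, beside 13.5% and 14.5% over all genes tested. Ly86 (MD-1) was at 452 and 546 CPM in Ly6C+ and 138 and 83.2 CPM in CD43+ pools (-2.37 ± 0.27, adjusted p = 0.000545), whereas its receptor partner Cd180 was higher by 0.95 (adjusted p = 0.0064), a call lost without either CD43+ pool or the Ly6C+ pool of dataset 2 (0.0502, 0.0615 and 0.0678). Of 82 ribosomal protein genes 1 was higher: Rpl3l, a form of RPL3 known from muscle, at 1.21 and 3.46 CPM against 53.5 and 65.9 (4.39 ± 0.61, adjusted p = 0.00401).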
